A study of Mus musculus with 8 samples.

Results

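Glycine is the main fast inhibitory transmitter of the brainstem and spinal cord, and the genes described here are 8 that let neurons release, sense and clear it. They are the glycine receptor subunit genes *Glra1*, *Glra2*, *Glra3*, *Glra4* and *Glrb*, the glycine transporter genes *Slc6a5* and *Slc6a9*, and *Slc32a1*, which loads glycine and GABA into synaptic vesicles. They were chosen by symbol, and all 8 were found among the 49585 genes of the count table for the alignment to the C57BL/6J genome (the B genome). All 8 had enough counts to be among the 23113 genes tested.

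RNA was measured in homogenized whole brains of 8 newborn females on postnatal day 1, F1 hybrids of a C57BL/6J mother and a CAST/EiJ father. The mothers of 4 pups drank water with 0 ppm cadmium (Cd) and those of the other 4 drank water with 50 ppm Cd, given as CdCl2 before and during pregnancy, and each pup came from a different litter. The comparison asks how maternal Cd exposure relates to RNA levels in the newborn brain. Brains are numbered 1 to 4 within each dose, and these numbers do not pair brains across doses.

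Glycine receptors are chloride channels built from alpha subunits, which bind glycine, and the beta subunit encoded by *Glrb*, which ties the channel to the scaffold protein gephyrin at synapses. The alpha 2 subunit is known as the main form of immature neurons, and the alpha 1 subunit as the main form of the mature brainstem and spinal cord. Neurons that release glycine are concentrated in the hindbrain and spinal cord, and they are recognised by the transporter GlyT2, encoded by *Slc6a5*, which returns glycine to the nerve ending. GlyT1, encoded by *Slc6a9*, is found mostly on astrocytes and removes glycine from the space around synapses.

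The genes lie on 7 different chromosomes of GRCm38, with only *Glra2* and *Glra4* sharing one, the X chromosome. *Slc6a5* (ENSMUSG00000039728) is at chr7:49910146-49963856 on the plus strand, *Glra1* (ENSMUSG00000000263) at chr11:55514238-55608198 on the minus strand and *Glrb* (ENSMUSG00000028020) at chr3:80843599-80913660 on the minus strand. *Glra2* (ENSMUSG00000018589) is at chrX:165129017-165327393 on the minus strand, *Glra3* (ENSMUSG00000038257) at chr8:55940460-56130070 on the plus strand and *Glra4* (ENSMUSG00000018595) at chrX:136757674-136780141 on the minus strand. *Slc6a9* (ENSMUSG00000028542) is at chr4:117834506-117875198 and *Slc32a1* (ENSMUSG00000037771) at chr2:158610767-158615748, both on the plus strand. Exons of a gene on the opposite strand cover 30.2% of the exon bases of *Slc6a9* (mainly *B4galt2*), 24.9% of those of *Slc32a1* and 5.8% of those of *Glra1*, so these counts are uncertain where reads were not assigned by strand. The genes opposite *Slc32a1* and *Glra1* had between 0 and 8 reads in each brain, while *B4galt2* had 3220 to 4626.

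The promoter regions of 3 of the genes are shown because these genes stand for different behaviours across the 8 brains. *Slc6a5* varied most between brains, *Glrb* is the shared receptor subunit and *Glra2* had the highest level. Each line is the 300-base window of RefSeq (GRCm38.p6) around an annotated start, 5′ to 3′ on the strand of the gene, at chr7:49910049-49910348 (plus strand) for *Slc6a5*, chr3:80913611-80913910 (minus strand) for *Glrb* and chrX:165327344-165327643 (minus strand) for *Glra2*. Capitals mark matches to 3 motifs on either strand, none of which overlap here. The letters searched were TATAAA for the TATA box. The E-box, to which basic helix-loop-helix factors bind, was searched as CANNTG. The GC box, to which factors of the Sp1 family bind, was searched as GGGCGG.
Slc6a5: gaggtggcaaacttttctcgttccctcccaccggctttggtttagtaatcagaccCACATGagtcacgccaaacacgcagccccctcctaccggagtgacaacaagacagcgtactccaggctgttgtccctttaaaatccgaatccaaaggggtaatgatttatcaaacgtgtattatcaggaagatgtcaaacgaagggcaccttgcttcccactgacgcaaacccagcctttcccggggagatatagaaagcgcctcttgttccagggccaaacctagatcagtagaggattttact
Glrb: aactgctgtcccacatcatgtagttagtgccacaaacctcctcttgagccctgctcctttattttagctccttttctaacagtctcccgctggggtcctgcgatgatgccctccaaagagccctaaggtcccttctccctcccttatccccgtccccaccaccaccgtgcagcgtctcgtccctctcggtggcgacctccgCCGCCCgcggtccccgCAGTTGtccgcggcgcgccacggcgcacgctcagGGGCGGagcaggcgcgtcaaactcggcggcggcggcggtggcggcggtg
Glra2: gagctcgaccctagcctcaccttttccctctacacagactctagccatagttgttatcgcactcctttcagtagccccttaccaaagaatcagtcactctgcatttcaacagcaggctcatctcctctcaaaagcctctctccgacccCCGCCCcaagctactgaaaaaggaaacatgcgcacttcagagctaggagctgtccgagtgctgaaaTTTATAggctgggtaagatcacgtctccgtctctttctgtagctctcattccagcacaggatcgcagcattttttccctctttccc

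The *Slc6a5* window had 1 E-box match, 49.7% GC and 12 CpG dinucleotides, and the table held a second window for this gene further into it. The *Glrb* window was richer in GC, at 65.7%, with 30 CpG, 2 GC box matches and 1 E-box match. The *Glra2* window had 50.3% GC, 9 CpG, 1 TATA box match and 1 GC box match. Across all 32851 windows of the same length, 13.6% held the TATA box letters, 72.3% the E-box letters and 35.7% the GC box letters, the median GC content was 52.7% and the median number of CpG was 7. The table held windows for 7 of the 8 genes, *Glra1* being the exception.

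Library totals ranged from 22916434 to 30708087 counted reads. Levels are given as CPM, read counts scaled to a common library size, and 3 reads corresponded to 0.098 to 0.132 CPM. Counts of different brains of 1 dose always differed by more than sampling noise (chi-square per degree of freedom 8.67 to 21.1 over the 12 pairs). The 0 ppm brains 1 and 2 stood apart from the other 6 brains. A list of 16 hindbrain and spinal cord genes summed to 13.7 and 20.7 CPM in these brains, to 44.28 and 44.3 CPM in 0 ppm brains 3 and 4, and to 62.0 to 103 CPM in the 50 ppm brains. A list of 14 forebrain genes summed to 1078 and 1042 CPM in 0 ppm brains 1 and 2 and to between 679.5 and 881.3 CPM in the other 6. The neuron marker list, of which 7 genes had counts and *Tubb3* was listed at 0 in all brains, summed to between 6078 and 6936 CPM. The hindbrain and spinal cord list had 2 genes, *Hoxa3* and *Hoxd4*, listed at 0 in all brains and 2 to 6 of its genes at 0 in each brain, with 6 at 0 in 0 ppm brain 1 and 4 in 0 ppm brain 2. In RNA from a whole brain, fewer cells of a type and less RNA per cell cannot be told apart. The samples are labelled whole brain, but 0 ppm brains 1 and 2 may have held less hindbrain tissue than the others, and this cannot be told apart here from lower RNA levels in that tissue.

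No glycine receptor or transporter gene passed the test of 50 ppm against 0 ppm (edgeR quasi-likelihood test, Benjamini-Hochberg adjusted p over all genes tested, threshold 0.05), where 4 of 23113 genes did (0.0173%). The lowest adjusted p was 0.7888, for *Glra1*. At an unadjusted p under 0.05, *Glra1*, *Slc6a5* and *Glrb*, 3 of the 8, lay on the positive side and 0 on the negative side, where 2.31% and 1.44% of all genes tested did. DESeq2 called 0 of the 8 at its adjusted threshold and gave 2, *Glra1* and *Glrb*, an unadjusted p under 0.05, where 0.0779% and 2.81% of all genes were called. Of the 8 genes, 7 lay on the positive side and the median log2 fold change was 0.18, whereas 49% of all genes tested lay on that side and their median was -0.0033. In none of the 8 genes did all exposed brains lie outside the range of the controls, as they did for 2.09% of the genes tested. Without 0 ppm brains 1 and 2, 4 log2 fold changes were positive and 4 negative, with a median of 0.0047, and 4 genes had an unadjusted p under 0.05, where 4.28% of genes did, and 0 passed the adjusted threshold, where 0.0294% did (edgeR).

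**Figure D1:**
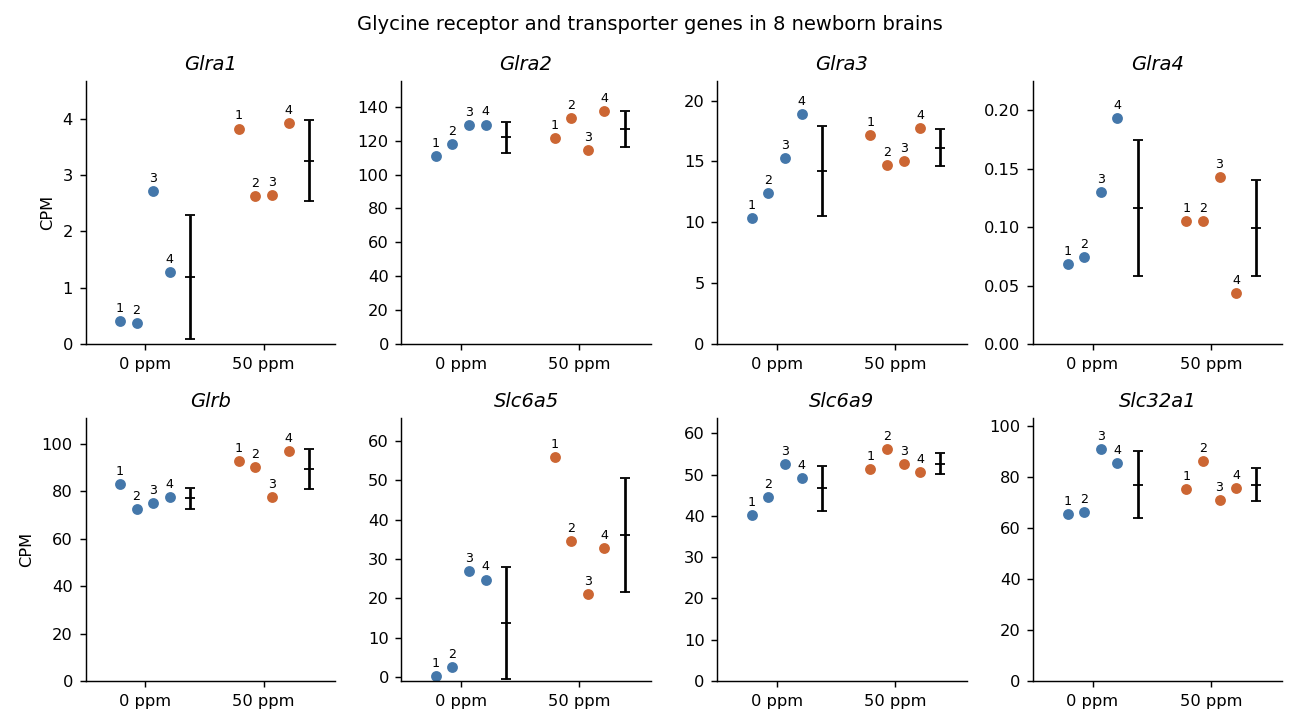
Level of each glycine receptor and transporter gene in CPM (vertical axis, linear; each panel has its own scale) in 4 brains at 0 ppm (blue) and 4 at 50 ppm Cd (orange), with brain numbers above the points and black bars for mean ± SD. The *Slc6a5* points of 0 ppm brains 1 and 2 sit at 0.239 and 2.38 CPM, apart from the other 6, and the doses overlap in every panel.

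The transporter that marks glycinergic neurons, *Slc6a5*, varied more than any of the other 7 genes. Its counts were 7, 64, 827 and 640 reads in 0 ppm brains 1 to 4 and 1598, 985, 589 and 742 reads in 50 ppm brains 1 to 4. These counts are 0.239, 2.38, 27.0 and 24.8 CPM at 0 ppm, against 56.1, 34.6, 21.02 and 32.7 CPM at 50 ppm. The highest brain had 234.6 times the CPM of the lowest, 0 ppm brains 1 and 2 were far below the rest, and 0 ppm brains 3 and 4 lay above 50 ppm brain 3. Mean levels were 13.6 ± 14.3 CPM at 0 ppm and 36.1 ± 14.6 CPM at 50 ppm (SD, n = 4 each), so the SD of the controls was as large as their mean. The log2 fold change was 1.41 ± 0.62 (SE; 95% interval 0.10 to 2.71; edgeR, unadjusted p = 0.03601, adjusted p = 0.9988). The unadjusted p depended on the fit. DESeq2 gave 1.41 ± 1.14 (SE, unadjusted p = 0.2175) and the robust edgeR fit 1.41 ± 1.04 (SE, unadjusted p = 0.2229). With the filter of 10 counts in 4 libraries the unadjusted p was 0.06635 (edgeR). It was 0.001139 with no filter on low counts (edgeR) and 0.01407 with limma-voom, which gave 2.29 ± 0.83 (SE).

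The *Slc6a5* difference was smaller without 0 ppm brains 1 and 2, in which the summed hindbrain and spinal cord list was lowest. These brains were also the lowest in *Slc6a5*, so leaving them out had to shrink the difference, and a cause was not tested. Without 0 ppm brains 1 and 2, the log2 fold change was 0.48 ± 0.21 (SE; edgeR, unadjusted p = 0.03389, adjusted p = 0.9978). Leaving out 1 brain at a time gave values between 1.00 and 2.00, with adjusted p between 0.6299 and 0.9999 (edgeR). With the hindbrain and spinal cord score of each brain, the mean log2 CPM of the 13 genes of that list that were tested, as a covariate, the sign turned and the log2 fold change was -0.89 ± 0.16 (SE; edgeR, unadjusted p = 1.835e-05, adjusted p = 0.08481). In that fit 3 of all genes passed the adjusted threshold (0.013%) and 4.26% had an unadjusted p under 0.05.

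*Glra1*, the adult-type alpha subunit, followed a similar order of brains at a low level. It had 12, 10, 83 and 33 reads in 0 ppm brains 1 to 4 (0.410, 0.372, 2.71 and 1.28 CPM) and 109, 75, 74 and 89 reads in the 50 ppm brains (3.82, 2.63, 2.64 and 3.93 CPM). The 0 ppm brains 1 and 2 were again the lowest, while 0 ppm brain 3 lay within the range of the exposed brains. Means were 1.19 ± 1.10 CPM at 0 ppm and 3.26 ± 0.716 CPM at 50 ppm (SD, n = 4 each), a log2 fold change of 1.42 ± 0.41 (SE; 95% interval 0.57 to 2.28; edgeR, unadjusted p = 0.002635, adjusted p = 0.7888). It was called only where 0 ppm brain 3 was left out (log2 fold change 2.25, adjusted p = 0.00877) or where no filter on low counts was used (adjusted p = 0.0331, both edgeR). Over all genes, 20 and 52 were called in these fits. Without 0 ppm brains 1 and 2 it was 0.68 ± 0.28 (edgeR, unadjusted p = 0.0224, adjusted p = 0.9978), and with the hindbrain and spinal cord score as a covariate 0.18 ± 0.35 (edgeR, unadjusted p = 0.6203).

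*Glrb*, the beta subunit that anchors the receptor, had 83.1, 72.4, 75.2 and 77.6 CPM in the 0 ppm brains, against 92.9, 90.3, 77.5 and 97.2 CPM in the 50 ppm brains. The 50 ppm brains 1, 2 and 4 lay above all controls and 50 ppm brain 3 lay among them, and 0 ppm brains 1 and 2 were the highest and the lowest of the controls. The means of 77.1 ± 4.53 and 89.5 ± 8.46 CPM (SD, n = 4 each) differed by a log2 fold change of 0.22 ± 0.08 (SE; 95% interval 0.05 to 0.38; edgeR, unadjusted p = 0.01393, adjusted p = 0.9988). This value changed little with the brains that stood apart. It was 0.23 ± 0.09 without 0 ppm brains 1 and 2 (edgeR, unadjusted p = 0.0262, adjusted p = 0.9978), 0.25 ± 0.11 with the score as a covariate (edgeR, unadjusted p = 0.04173, adjusted p = 0.9996), and between 0.17 and 0.28 in all 16 alternatives run.

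*Glra2*, the alpha subunit of immature neurons, had 111, 118, 129.4 and 129.5 CPM in the 0 ppm brains, against 121, 133.5, 114 and 137 CPM in the 50 ppm brains. The doses overlapped almost fully. The log2 fold change was 0.05 ± 0.08 (SE; edgeR, unadjusted p = 0.5004, adjusted p = 0.9988), and its 95% interval ran from -0.11 to 0.21.

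The alpha subunit gene *Glra3* had 10.3, 12.4, 15.3 and 18.9 CPM at 0 ppm, against 17.2, 14.7, 15.0 and 17.7 CPM at 50 ppm. The 0 ppm brains 1 and 2 were the lowest of the 8, and 0 ppm brain 4 was the highest. Its log2 fold change of 0.18 ± 0.15 (SE; 95% interval -0.13 to 0.50; edgeR, adjusted p = 0.9988) became -0.08 without 0 ppm brains 1 and 2. *Glra4* had only 1 to 5 reads in any brain, 2, 2, 4 and 5 at 0 ppm and 3, 3, 4 and 1 at 50 ppm, and a difference was not detectable at this depth (log2 fold change -0.19, 95% interval -1.59 to 1.22; edgeR, adjusted p = 0.9988).

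The astrocyte transporter gene *Slc6a9* had 40.3, 44.6, 52.6 and 49.3 CPM in the 0 ppm brains, against 51.4, 56.2, 52.5 and 50.6 CPM in the 50 ppm brains. The lowest values were again those of 0 ppm brains 1 and 2. Means were 46.7 ± 5.38 and 52.7 ± 2.45 CPM (SD, n = 4 each), with a log2 fold change of 0.17 ± 0.09 (SE; 95% interval -0.01 to 0.36; edgeR, unadjusted p = 0.0568, adjusted p = 0.9988), which was 0.05 without 0 ppm brains 1 and 2.

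The vesicular transporter gene *Slc32a1* is used by both glycinergic and GABAergic neurons. It had 65.6, 66.4, 91.0 and 85.7 CPM in the 0 ppm brains, against 75.4, 86.4, 71.0 and 75.9 CPM in the 50 ppm brains. The lowest values were those of 0 ppm brains 1 and 2, and the highest was that of 0 ppm brain 3. The means of 77.1 ± 13.1 and 77.2 ± 6.57 CPM (SD, n = 4 each) differed by a log2 fold change of 0.00033 (95% interval -0.21 to 0.21; edgeR, adjusted p = 0.9995). Without 0 ppm brains 1 and 2 the value was -0.20 ± 0.09 (edgeR, unadjusted p = 0.0418, adjusted p = 0.9978).

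**Figure D2:**
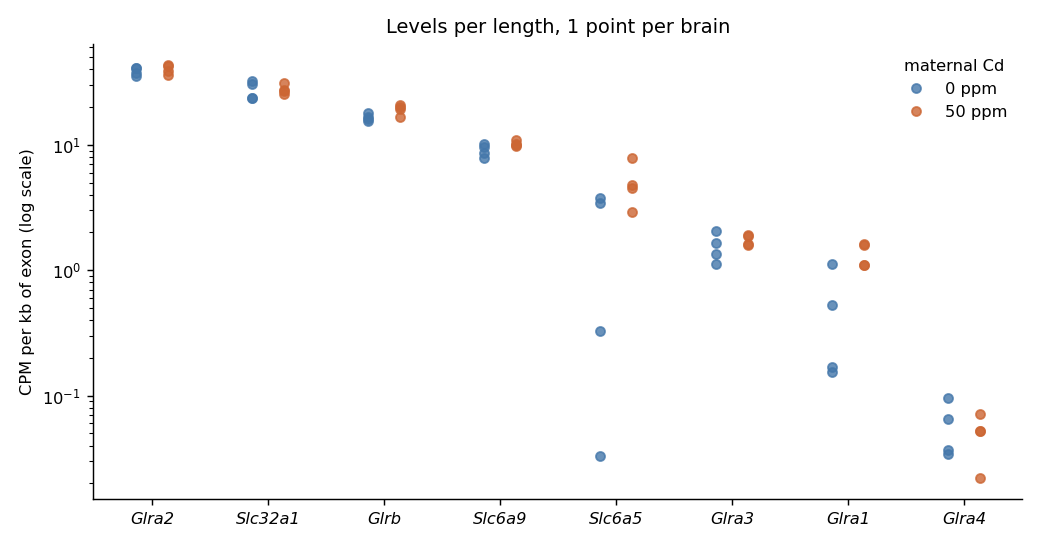
Level of each glycine receptor and transporter gene in CPM per kilobase of exon (vertical axis, log scale), 1 point per brain, 0 ppm in blue and 50 ppm in orange, ordered by the mean of the 8 brains. *Glra2* is the highest, at a mean of 39.5, and *Glra4* the lowest, at 0.0538; the *Slc6a5* points of 0 ppm brains 1 and 2 fall below those of the other brains.

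Levels of different genes were compared as CPM per kilobase of exon, the summed length of a gene's annotated exons. Over the 8 brains the mean was 39.5 for *Glra2*, 27.6 for *Slc32a1*, 17.9 for *Glrb*, 9.67 for *Slc6a9*, 3.45 for *Slc6a5*, 1.65 for *Glra3*, 0.921 for *Glra1* and 0.0538 for *Glra4*. The ranges over the 8 brains of neighbours in this order did not overlap, with the exception of *Slc6a5* and *Glra3*, which stood in this order in 6 of 8 brains, and of *Glra3* and *Glra1*, which stood in it in 8 of 8. The other 2 brains, in which *Slc6a5* was below *Glra3*, were 0 ppm brains 1 and 2.

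The alpha subunit RNA of the newborn brain was mostly *Glra2*. Per length, *Glra2* made up between 91.7% and 96.4% of the summed alpha subunit RNA in the 8 brains, *Glra3* 3.07% to 4.68% and *Glra4* 0.047% to 0.22%. The share of *Glra1* was 0.464%, 0.395%, 2.56% and 1.21% in 0 ppm brains 1 to 4 and 3.77%, 2.42%, 2.80% and 3.45% in 50 ppm brains 1 to 4. The *Glra1* share was thus lowest in 0 ppm brains 1 and 2, and that of 0 ppm brain 3 lay within the range of the exposed brains.

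**Figure D3:**
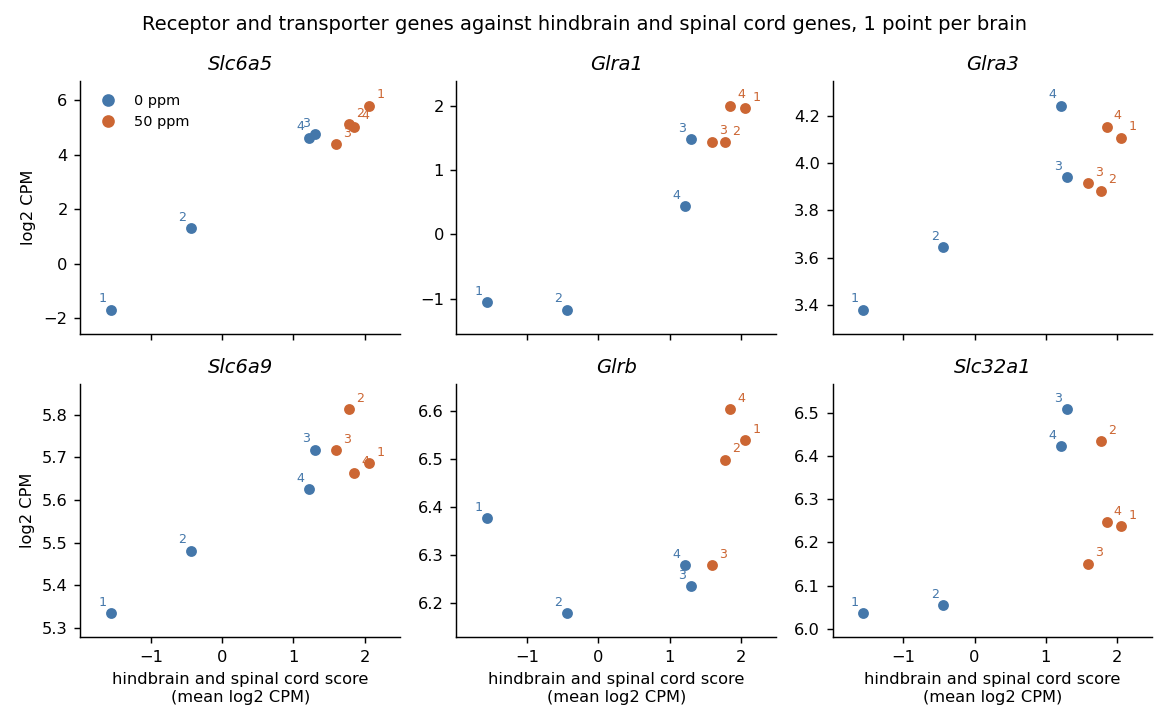
Log2 CPM of 6 of the glycine genes (vertical axes, each with its own range) against the hindbrain and spinal cord score of the brain (horizontal axis, mean log2 CPM of 13 marker genes), 1 numbered point per brain, 0 ppm in blue and 50 ppm in orange. The 0 ppm brains 1 and 2, at scores of -1.56 and -0.44, are set apart from the other 6, at 1.21 to 2.07, and are the lowest in the panels of *Slc6a5*, *Glra1*, *Glra3*, *Slc6a9* and *Slc32a1* but not in that of *Glrb*.

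In 8 of the 13 hindbrain and spinal cord genes tested, 0 ppm brains 1 and 2 were below the other 6 brains. The same held for *Slc6a5*, *Glra1*, *Glra3*, *Slc6a9* and *Slc32a1*, and for 4.91% of all genes tested. Of the 16 listed, 13 were tested, 12 of these were positive in log2 fold change and 10 reached an unadjusted p under 0.05 (2.31% of all genes did so on the positive side), with a median of 1.41, and none passed the adjusted threshold (lowest adjusted p = 0.4206, edgeR). When 0 ppm brains 1 and 2 were left out, 14 were tested, 13 of them were positive and 7 of these had an unadjusted p under 0.05 (2.24% of all genes), with a median of 0.84. Peripherin (*Prph*), of motor and sensory neurons, had 4.98, 2.12, 10.1 and 7.28 CPM at 0 ppm, against 16.5, 14.6, 10.6 and 13.2 CPM at 50 ppm, all exposed brains above all controls, as in 1.19% of the genes tested. The other 5 genes had another order. The noradrenaline transporter gene *Slc6a2* had 1.71, 8.04, 5.26 and 4.61 CPM at 0 ppm, against 2.60, 5.02, 19.9 and 26.8 CPM at 50 ppm, with 0 ppm brain 2 the third highest of the 8. *Dbh*, which makes noradrenaline, had 1.90 CPM in 0 ppm brain 2 and 1.123 CPM in 50 ppm brain 1, and *Tlx3*, of dorsal sensory neurons, had 2.38 CPM in 0 ppm brain 2, the second highest. The serotonin neuron genes *Tph2* and *Fev* had log2 fold changes of 0.12 ± 0.23 and -0.06 ± 0.34 (SE). *Fev* had 0.649 and 0.744 CPM in 0 ppm brains 1 and 2, within the 0.349 to 0.772 CPM of the other 6 brains. *Tph2* had 5.26 and 3.50 CPM in those 2 brains, against 5.03 to 9.20 CPM in the other 6. The score was -1.56, -0.44, 1.30 and 1.21 in 0 ppm brains 1 to 4 and 2.07, 1.78, 1.59 and 1.855 in the 50 ppm brains. Means were 0.129 ± 1.38 and 1.82 ± 0.195 (SD, n = 4 each; difference 1.70, exact two-sided permutation test, p = 0.0286, the smallest that 4 against 4 allows), and without 0 ppm brains 1 and 2 the difference was 0.57 (exact two-sided permutation test, p = 0.0667, again the smallest possible). The part of this score in the results for *Slc6a5* and *Glra1* was not tested beyond the covariate fits given with those genes.

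Forebrain genes lay the other way. Of 14 genes tested, 13 were negative in log2 fold change and 7 of these had an unadjusted p under 0.05 (median -0.33; 1.44% of all genes did so on the negative side), and 3 had all exposed brains below all controls, as did 0.904% of the genes tested. *Dlx1*, of forebrain inhibitory neurons, had 90.2, 87.8, 86.2 and 94.5 CPM at 0 ppm, against 59.4, 74.3, 60.1 and 74.7 CPM at 50 ppm (log2 fold change -0.42 ± 0.08 SE; edgeR, adjusted p = 0.2323). Among the other 6 brains, 9 of the 14 were negative and 5 positive, with a median of -0.29, and an unadjusted p under 0.05 was reached by 7 on the negative side (2.04% of all genes) and by 2 on the positive side. The cerebellum list summed to 56.2, 104.5, 83.0 and 78.5 CPM at 0 ppm, against 93.2, 92.7, 106.3 and 93.7 CPM at 50 ppm, so 0 ppm brain 2 was not low for it. The part of forebrain and cerebellum RNA in these results was not tested.

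**Figure D4:**
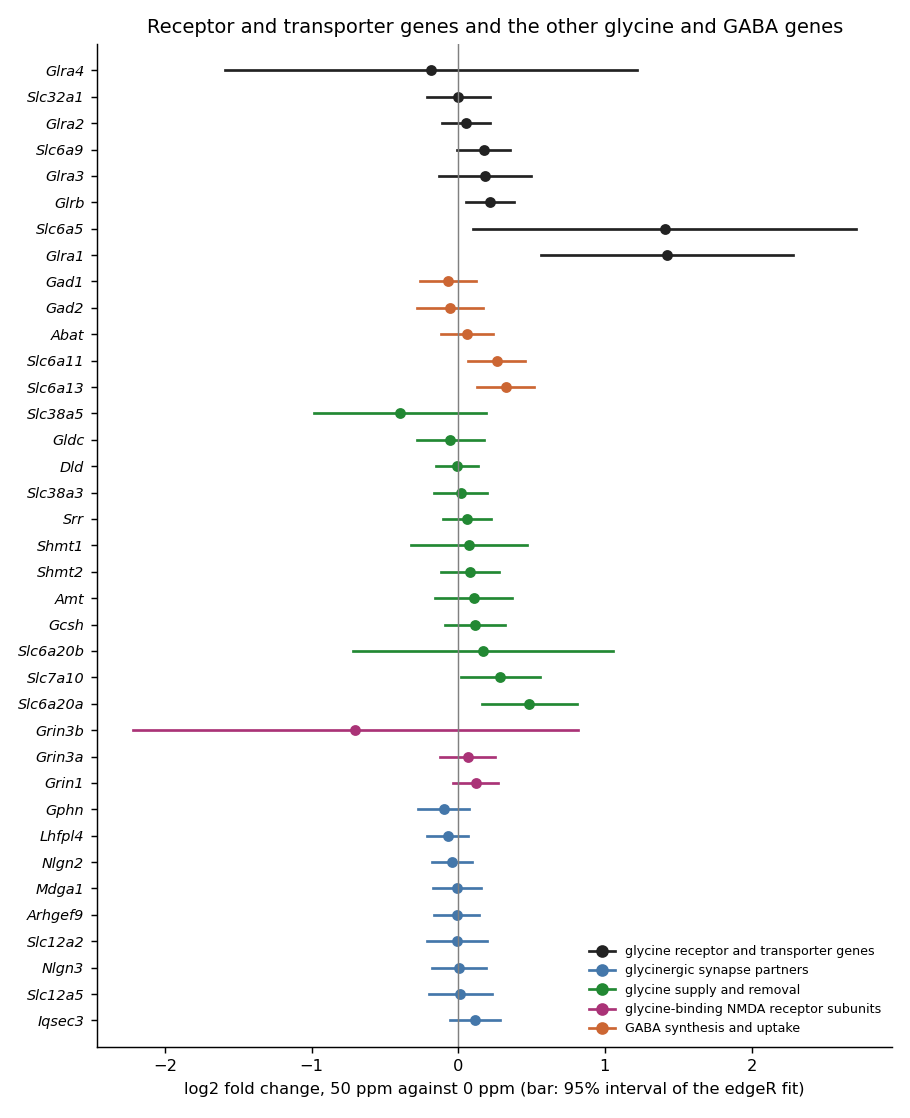
Log2 fold change of 50 ppm against 0 ppm (horizontal axis) with its 95% interval from the edgeR fit (bars) for the 8 glycine receptor and transporter genes (black), genes of the glycinergic synapse (blue), of glycine supply and removal (green), the glycine-binding NMDA receptor subunits (purple) and GABA synthesis and uptake (orange, 5 of the 6 genes). *Glra1* (1.42) and *Slc6a5* (1.41) lie farthest to the right with wide intervals, and most of the other genes lie near 0.

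The other genes of the glycinergic pathway were 24, all tested, and none passed the adjusted threshold with edgeR or DESeq2. At an unadjusted p under 0.05 there were 2 with either tool, both positive in the edgeR fit, where 3.75% of all genes tested were called with edgeR. The 9 genes of the postsynaptic scaffold and of chloride transport had a median log2 fold change of -0.010, 3 positive and 6 negative. Gephyrin (*Gphn*), the scaffold to which *Glrb* binds, had 150.9 ± 18.4 CPM at 0 ppm and 140.8 ± 8.50 CPM at 50 ppm (log2 fold change -0.10, 95% interval -0.28 to 0.08). The chloride exporter KCC2 (*Slc12a5*), which makes glycine inhibitory as neurons mature, had 215.3, 222.2, 311.1 and 299.9 CPM at 0 ppm, against 267.9, 279.4, 252.3 and 259.6 CPM at 50 ppm, with 0 ppm brains 1 and 2 the lowest. Its log2 fold change was 0.01 ± 0.10 with all brains and -0.21 ± 0.08 without 0 ppm brains 1 and 2 (edgeR, unadjusted p = 0.01232, adjusted p = 0.8942).

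Among the 12 genes of glycine synthesis, breakdown and transport, 9 log2 fold changes were positive and 3 negative (median 0.08), where 49% of all genes tested were positive. *Slc6a20a*, a transporter of proline and glycine, had 17.6, 25.8, 19.8 and 21.6 CPM at 0 ppm, against 27.2, 20.2, 33.4 and 37.8 CPM at 50 ppm, with 50 ppm brain 2 among the controls. Its log2 fold change was 0.48 ± 0.15 (edgeR, unadjusted p = 0.005793, adjusted p = 0.9988) and 0.51 ± 0.16 without 0 ppm brains 1 and 2 (edgeR, adjusted p = 0.6628). *Slc7a10*, which exchanges glycine and D-serine in astrocytes, had 9.59, 10.2, 13.2 and 12.4 CPM at 0 ppm, against 12.95, 15.6, 12.1 and 14.7 CPM at 50 ppm. The doses overlapped, and its log2 fold change of 0.29 ± 0.13 (edgeR, unadjusted p = 0.0387, adjusted p = 0.9988) was 0.11 ± 0.14 without 0 ppm brains 1 and 2. The glycine cleavage gene *Gldc* had 25.4 ± 3.47 CPM at 0 ppm and 24.5 ± 2.73 CPM at 50 ppm (log2 fold change -0.05, 95% interval -0.28 to 0.18).

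Glycine is also a co-agonist of NMDA receptors, and of the 3 glycine-binding subunits *Grin1* and *Grin3a* had log2 fold changes of 0.12 and 0.06. *Grin1* had means of 149.3 CPM at 0 ppm and 162.3 CPM at 50 ppm (log2 fold change 0.12 ± 0.07 SE), and *Grin3a* 199.9 ± 26.3 and 209.0 ± 16.3 CPM. *Grin3b* stood at 0.153 ± 0.044 CPM at 0 ppm and 0.089 ± 0.090 CPM at 50 ppm, near the level of 3 reads.

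GABA, the other fast inhibitory transmitter, was followed through 6 genes of its synthesis, breakdown and uptake, of which 3 lay on the positive and 3 on the negative side, and 0 passed the adjusted threshold with edgeR or DESeq2. The uptake genes *Slc6a13* and *Slc6a11* had an unadjusted p under 0.05 on the positive side, as did 2.31% of all genes tested. *Slc6a13* (GAT2), of the meninges and blood vessels, had 32.3, 25.4, 30.8 and 29.0 CPM at 0 ppm, against 40.5, 37.3, 33.7 and 35.7 CPM at 50 ppm. All exposed brains lay above all controls, as in 1.19% of the genes tested (log2 fold change 0.32 ± 0.09, edgeR, unadjusted p = 0.002588, adjusted p = 0.7888). Its value was 0.30 ± 0.11 without 0 ppm brains 1 and 2. Of 6 meninges genes, 5 were on the positive side (median log2 fold change 0.12), where 49% of all genes tested lay, and their part in the result was not tested.

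*Slc6a11* (GAT3), of astrocytes, had 237.0, 220.2, 290.1 and 253.7 CPM at 0 ppm, against 291.9, 338.4, 254.6 and 314.6 CPM at 50 ppm (log2 fold change 0.26 ± 0.09; edgeR, unadjusted p = 0.01091, adjusted p = 0.9988), with 50 ppm brain 3 among the controls. It was 0.14 ± 0.10 without 0 ppm brains 1 and 2. All 6 astrocyte markers were on the positive side (median log2 fold change 0.15), where 49% of all genes tested lay. Their values ran from 0.02 for *Aldh1l1* and 0.03 for *Fabp7* to 0.59 for *Gfap* and 0.71 for *Aqp4*. The part of astrocyte RNA in the result was not tested.

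*Gad1* and *Gad2*, which make GABA, had log2 fold changes of -0.07 and -0.06 with all brains. *Gad1* had 201.8, 198.7, 259.2 and 262.4 CPM at 0 ppm, against 201.9, 227.8, 216.1 and 232.0 CPM at 50 ppm, with 0 ppm brains 1 and 2 the lowest controls. With those brains left out the values were -0.25 ± 0.08 for *Gad1* (edgeR, unadjusted p = 0.003869, adjusted p = 0.6458) and -0.23 ± 0.10 for *Gad2* (edgeR, unadjusted p = 0.02567, adjusted p = 0.9978).

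The genes whose pattern over the 8 brains was most like that of *Slc6a5* were named by Pearson's r of log2 CPM among 16531 genes with at least 10 counts in at least 4 brains. Among the 10 highest were *Flt3* (r = 0.987), *Hoxb2* (0.980), *Mab21l2* (0.980), *Hoxa2* (0.979), *Hoxc4* (0.979), *Evx1* (0.973), *Hoxb3* (0.970), *Slc1a6* (0.969) and *Hoxb5* (0.964). All 10 share the 8 libraries. When 0 ppm brains 1 and 2 were left out, 0 of these 10 genes were among the 10 most like it. The ranking thus changed with those brains, and the r of each gene without them is not given here. *Hoxb5*, which sets position along the body axis, had 0, 0.11, 4.44 and 12.6 CPM at 0 ppm, against 47.6, 15.6, 8.10 and 13.2 CPM at 50 ppm, with the lowest values in 0 ppm brains 1 and 2. *Mab21l2*, a gene of the midbrain and other developing tissues, had 7.95, 12.3, 30.3 and 32.3 CPM at 0 ppm, against 49.2, 29.5, 30.1 and 35.6 CPM at 50 ppm.

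Among the 5 genes most like *Glrb* were *Slc14a1* (r = 0.968), *6530401F13Rik* (0.957), *Bche* (0.935) and *Pla2g16* (0.935), over the same 8 brains. *Slc14a1*, a urea transporter, had 3.45, 2.16, 2.91 and 3.10 CPM at 0 ppm, against 4.60, 4.28, 2.93 and 4.68 CPM at 50 ppm. In it, as in *Glrb*, 50 ppm brain 3 lay among the controls while the other exposed brains lay above them. Of these 5 genes, 1 remained among the 5 most like *Glrb* without 0 ppm brains 1 and 2.

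**Figure D5:**
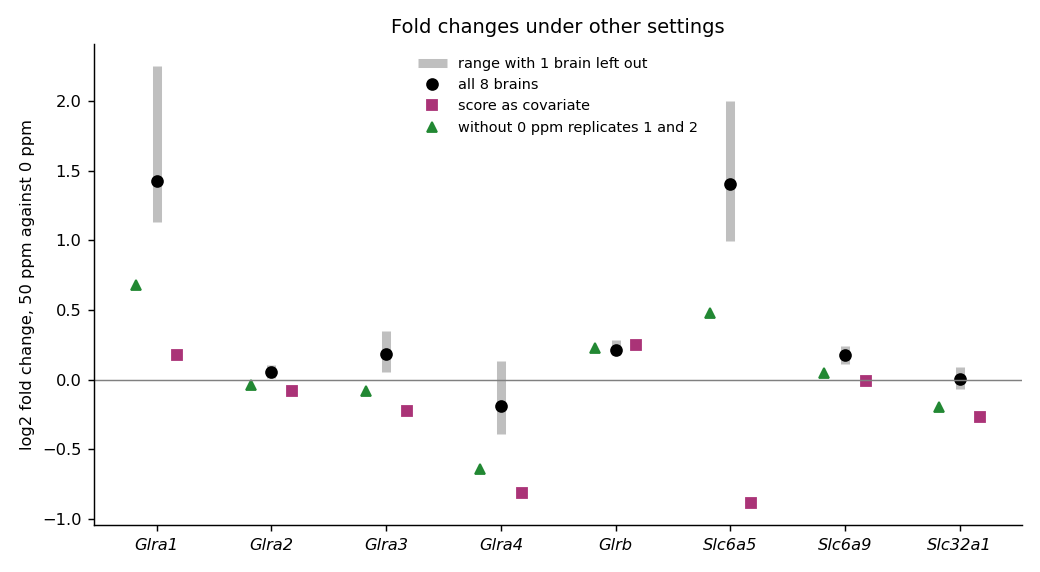
Log2 fold change of 50 ppm against 0 ppm (vertical axis) of each glycine receptor and transporter gene with all 8 brains (black circles), without 0 ppm brains 1 and 2 (green triangles) and with the hindbrain and spinal cord score as a covariate (purple squares), and the range with 1 brain left out in turn (grey bars). *Slc6a5* runs from 1.41 to 0.48 and -0.89, whereas *Glrb* stays between 0.17 and 0.28.

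Across the 16 alternatives run, *Glrb* and *Glra1* kept a positive log2 fold change in all, *Slc6a5* and *Slc6a9* in 15, and *Glra2* and *Glra3* in 14. *Slc32a1* kept its sign in 10 of 16 and *Glra4*, which the filter of 10 counts removed, its negative sign in 13 of 15.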

How the data were processed

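The deposited values are raw read counts per gene, not normalized by the authors, in 8 whole-brain poly(A) libraries made with a directional kit. Per the labels and methods, the authors trimmed the initial bases of single-end reads, aligned them with STAR to the B genome (GRCm38) and counted them with htseq-count; the versions and the strand setting are not given in the sources used here. Reads of the CAST/EiJ allele were aligned to the B genome, which could lower counts where the strains differ. The count table for the CAST/EiJ genome was not used here, because its identifiers could not be matched to these symbols. Gene symbols were matched for 49326 of 49585 identifiers, and coordinates and exon lengths came from GENCODE on GRCm38.

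Genes with 0 counts in more than 5 of 8 libraries were left out. Differences were tested with glmQLFit and glmQLFTest of edgeR 4.0.16 in R 4.3.3 with TMM normalization, treatment as the only term; p-values were adjusted over all genes tested (Benjamini-Hochberg, threshold 0.05). The standard error was the absolute log2 fold change over the square root of F. CPM used TMM library sizes, log2 CPM a prior count of 2. Marker scores were compared with exact two-sided permutation tests over 70 labellings. Alternatives used DESeq2 1.42.0 and its size factors, limma 3.58.1 (voom), other filters, a robust fit, the marker score as a covariate and each library left out. Leaving out 0 ppm libraries 1 and 2 together was chosen after the data were seen. The code was tested on simulated data. Figures were drawn with matplotlib 3.10.9.

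Samples were grouped by the treatment label. The genes, the gene lists and the tests were chosen with earlier results of these data known. Genes named were the 8 receptor and transporter genes, genes of the pathway and GABA lists with an unadjusted p under 0.05 or a high level, and the 10 and 5 genes most like *Slc6a5* and *Glrb*. *Gldc*, the NMDA receptor subunits, *Gad1*, *Gad2*, *Slc12a5*, *Gphn* and the marker genes given as examples were chosen with their values seen. A few genes that met these rules are not reported here. The p-values measure the spread between pups of different litters within each dose.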

Additional observations from a re-analysis of the deposited data

How the results depend on the processing

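No paired analysis was possible because the labels carry no replicate numbers shared by the doses. When the hindbrain and spinal cord score was a covariate, log2 fold changes turned to -0.0796 for *Glra2*, -0.23 for *Glra3*, -0.89 for *Slc6a5*, -0.0129 for *Slc6a9* and -0.27 for *Slc32a1*. Without 0 ppm brains 1 and 2 it turned to -0.0359 for *Glra2*, -0.0826 for *Glra3* and -0.20 for *Slc32a1*. The near-zero value of *Slc32a1* also turned with limma-voom (-0.0390), without 0 ppm brain 1 (-0.0702) or 2 (-0.0651) and without 50 ppm brain 2 (-0.0589), within a range of -0.0702 to 0.0899 with 1 brain left out. That of *Glra4* turned without 0 ppm brain 4 (0.14) or 50 ppm brain 4 (0.0214), within a range of -0.389 to 0.14. The count of receptor and transporter genes called was 0, and 1 (*Glra1*) with no filter or without 0 ppm brain 3, where 52 and 20 of all genes were called. Leaving out 1 brain thus gave 0 to 1. The count with an unadjusted p under 0.05 was 3, and 1 without 50 ppm brain 4, a fit for which the share of all genes is not given here. The cause was not tested.

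Of all genes tested, 4 were called, 18 with DESeq2, 52 with no filter, 2 with the stricter filter of 10 counts in 4 libraries, 1 with limma-voom and 7 without 0 ppm brains 1 and 2. Leaving out 1 brain gave 2 to 20, with 20 without 0 ppm brain 3, 8 without 50 ppm brain 3 and 2 without 0 ppm brain 1, 0 ppm brain 2 or 50 ppm brain 4. The hindbrain and spinal cord score differed by 1.70, by 1.13 to 2.09 with 1 brain left out and by 0.57 without 0 ppm brains 1 and 2 (exact permutation p = 0.0667), and the forebrain score by -0.27, by -0.32 to -0.19 and by -0.17 (exact permutation p = 0.2). The exact permutation p of the hindbrain and spinal cord score was 0.0286 without any 1 of the 0 ppm brains and 0.0857 to 0.114 without any 1 of the 50 ppm brains. In the latter fits the remaining 50 ppm brains still had higher scores than all 0 ppm brains. The two-sided test there also counted labellings that put the low 0 ppm brains 1 and 2 together in the smaller group. The exact permutation p of the forebrain score was 0.0571 without any 1 of the 0 ppm brains, 0.0857 without 50 ppm brain 1 and 0.0286 without 50 ppm brain 2, 3 or 4. Both marker lists were chosen with earlier results of these data known, so these p-values are not independent evidence of a difference. Of the 10 genes most like *Slc6a5*, 9 remained with a prior count of 0.5 and 0 with Spearman's rho, and of the 5 most like *Glrb*, 5 and 1. At 1 to 5 reads, depth limits *Glra4*.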

Other observations

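The ratio of *Glrb* to the summed alpha subunit RNA, both as CPM per kilobase of exon, was 0.488, 0.398, 0.368 and 0.381 in 0 ppm brains 1 to 4 and 0.475, 0.430, 0.426 and 0.443 in 50 ppm brains 1 to 4. The 4 exposed brains lay above 0 ppm brains 2, 3 and 4 and below 0 ppm brain 1. The ratio of *Slc6a9* to *Slc6a5*, the astrocyte to the neuronal glycine transporter, was 236.2 and 26.3 in 0 ppm brains 1 and 2, 2.73 and 2.79 in 0 ppm brains 3 and 4, and 1.29 to 3.50 in the 50 ppm brains.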
